A study of Mus musculus with 1073 samples.

Results

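The genes of the cytoplasmic ribosomal proteins were followed across 13 sorted populations of mouse yolk sac cells. All symbols made of Rpl or Rps and a digit were taken, with Rplp0, Rplp1, Rplp2 and Rpsa, and without pseudogenes named "-ps" and the Rps6k kinases, which gave 89 of the 15967 genes in the filtered table. Of these, 46 encode proteins of the large (60S) subunit and 31 proteins of the small (40S) subunit, and these 77 are called the core genes below. Another 6 are paralogues (Rpl7l1, Rpl22l1, Rpl36al, Rpl39l, Rps4l and Rps27l), 5 are near-identical copies (Rpl6l, Rpl37rt, Rps3a2, Rps3a3 and Rps27rt), and Rps19bp1 matches the pattern but encodes a nucleolar partner of RPS19. The study profiled single cells to describe how blood and endothelium arise in the yolk sac. Flk1-GFP+ mesoderm came from Flk1-GFP/+ embryos at E7.25 and E7.75, a line with GFP at the gene of the VEGF receptor FLK1, kept on C57BL/6. The other populations came from C57BL/6 embryos without treatment, namely haematopoietic progenitors (HPC, labelled erythro-myeloid progenitors) at E8.25, E8.5, E9.5 and E10.5, primitive erythroid cells (EryP), megakaryocytes (Mk) and endothelium (Endo) at E8.5 and E10.5, and macrophages (Mac) at E10.5. The cells were dissociated, pooled over embryos, sorted by surface markers or GFP and captured on Fluidigm C1 chips that hold cells of a set size range.

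Captures were told apart by sequencing lane, which is an inference from the labels. By lane, E7.25 and E7.75 have 2 captures each, and any other population is 1 capture. No test between populations was made, since 2 captures against 2 are too few for an exact test to pass a threshold, and quartiles or intervals over cells describe cells, not replicate embryos. The filter passed 926 of 1073 cells, with 3 in E10.5 EryP and 25 or more in each other population, with 483830 to 5943204 counts per cell. All marker genes fixed for each sorted type were detected in at least 50% of its cells. Markers of other types were also present, with all 4 endothelial markers in over 92% of E8.25 and of E8.5 HPC. The libraries ran on 2 flow cells, the first with E7.25 Flk1-GFP+, E8.25 HPC and the E8.5 populations (6 populations), the second with E7.75 Flk1-GFP+, E9.5 HPC and the E10.5 populations (7 populations). Library names carried by the E7.25 and E8.25 cells give a later stage than their titles, and the titles were used.

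A ribosome joins a small subunit, which reads the mRNA, to a large subunit, which forms the peptide bond, and each structural protein is present in about a single copy, apart from the stalk proteins. The mRNAs of these proteins belong to the 5' TOP class, whose translation is set together by mTOR signalling. Loss of a single copy of several of these genes causes Diamond-Blackfan anaemia, which makes them of interest in blood-forming tissue.

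Mammalian genomes hold many processed copies of these genes, and the Rps27 family shows how far sequence allows counts to be assigned. RPS27 is a zinc finger protein of the small subunit. Rps27 lies on chromosome 3 (GRCm38, chr3:90212522-90213651, minus strand), the copy Rps27rt on chromosome 9 (chr9:114982366-114982739, minus strand), and the paralogue Rps27l elsewhere on chromosome 9 (chr9:66946086-66949516, plus strand). The first 60 coding bases are given for all 3 genes, from the GENCODE M21 transcripts, with capitals at the positions where Rps27 and Rps27l differ:
Rps27: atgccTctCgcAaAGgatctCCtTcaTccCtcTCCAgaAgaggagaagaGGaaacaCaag
Rps27l: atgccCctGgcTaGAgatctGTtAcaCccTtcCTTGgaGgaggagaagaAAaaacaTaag
Rps27rt: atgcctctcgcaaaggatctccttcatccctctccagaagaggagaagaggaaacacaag
Over this stretch Rps27 and Rps27l differ at 18 positions and Rps27 and Rps27rt at 0. Over the 252 coding bases of Rps27, 252 aligned bases were identical in Rps27rt (100%) and 192 in Rps27l (76.2%). A read that lies within the Rps27 coding sequence therefore fits Rps27rt equally well.

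The share of counts given to the copy differed between such pairs. Rps27rt held 87.8% to 95.6% of the summed counts of Rps27 and Rps27rt in the 13 populations, and Rpl37rt, 99.7% identical to Rpl37 over the coding sequence, held 85.9% to 90.0% of theirs. For Rps3a1, Rps3a2 and Rps3a3, which are 99.5% and 98.99% identical to Rps3a1 over the coding sequence, the share of the copy was 51.1% to 69.3% and 28.6% to 42.3%. Rpl6l held 43.0% to 47.7% of its pair with Rpl6. How reads with several equal matches were assigned is not given in the sources used here, so the values of these genes and of their copies are uncertain singly. A sum over all members of a family does not depend on how the counted reads were divided between them. It does depend on whether reads with several equal matches were counted at all, which is not given either. Sums that leave out the pseudogenes named "-ps" can also depend on the division between genes and pseudogenes.

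Genes named as pseudogenes also held counts. Across all ribosomal protein symbols with "-ps", the median share of a cell's counts was 0.795% to 1.36%, compared with 1.51% to 2.64% for the 89 ribosomal protein genes. Of 48 core genes with such pseudogenes, 28 had a lower level than their pseudogenes together. Rps6, a target of S6 kinase in the small subunit, had 37.2 CPM and its 4 pseudogenes 861 CPM, of which Rps6-ps4 alone had 850.0. Rpl23a, which lies near the exit of the peptide tunnel, had 3.97 CPM against 151.5 for its 2 pseudogenes. At the other end, Rplp0 had 1533 CPM and its pseudogene 4.77, and Rpl32 had 692 CPM and its pseudogene 1.85. CPM here is the deposited value, a count scaled by a single factor per cell.

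Levels per kilobase of exon spanned a wide range and were lower where more of the transcript was found elsewhere. Among the 5 highest core genes were Rpl4 (1341 CPM per kb), Rplp0 (924), Rpl8 (817) and Rpl32 (719), all means over the 13 populations. The 5 lowest were Rpl23a (4.68), Rps12 (5.85), Rpl12 (6.80), Rps13 (7.05) and Rpl28 (7.17). For each core gene, the share of 100-base windows of the main transcript that also occur in another annotated gene was counted, and 5 genes had a share of 0. The 19 genes with under 20% of windows shared had a median level of 194 CPM per kb, the 31 genes between had 35.8, and the 27 genes with 50% or more had 23.5. Across the 77 core genes the Spearman correlation of level and shared windows was -0.59, or -0.41 with windows of 50 bases. Genes are not independent replicates, and length of annotation enters both quantities. The part of shared sequence in the spread of levels was not tested. A few genes carried the sum, since the 10 highest by mean level held 51.8% of all counts of the 89 genes and the 20 highest held 70.8%.

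**Figure D1:**
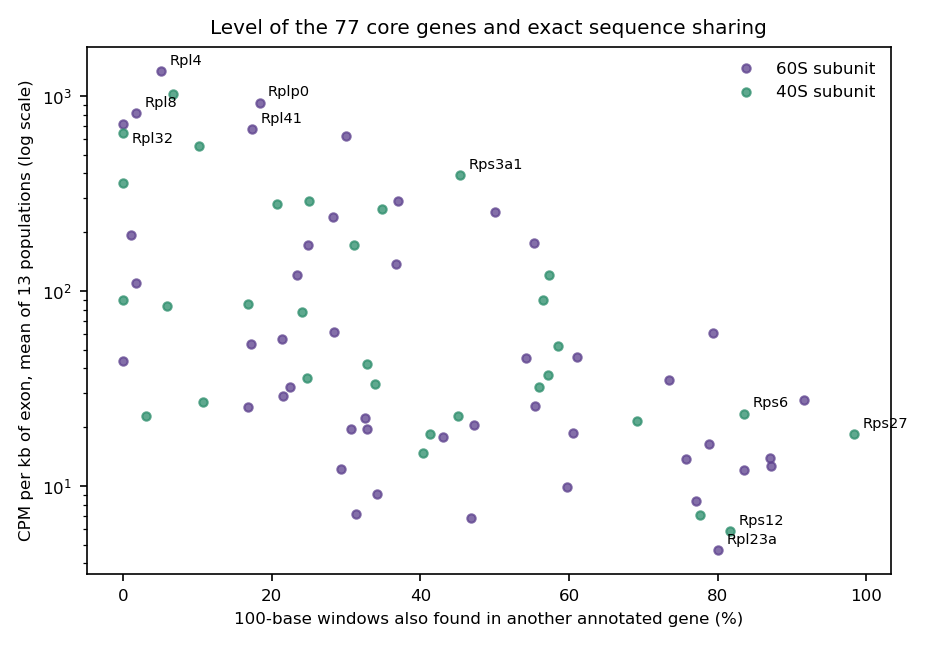
Level of each of the 77 core genes (CPM per kb of exon, mean of 13 populations, log scale) against the percentage of its 100-base windows that also occur in another annotated gene, with large subunit genes in purple and small subunit genes in green. Rpl4, at 1341 CPM per kb, has 5.14% of windows shared, and Rpl23a, at 4.68, has 80.0%.

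The share of a cell's total counts held by the 89 genes was lowest in endothelium and highest in the E10.5 HPC. In order, the medians over cells were 1.51% in E10.5 Endo, 1.54% in E8.5 Endo, 1.93% in E8.5 HPC, 1.96% in E7.25 Flk1-GFP+, 1.96% in E8.25 HPC, 1.99% in E10.5 Mk, 2.21% in E8.5 Mk, 2.34% in E9.5 HPC, 2.34% in E7.75 Flk1-GFP+, 2.46% in E8.5 EryP, 2.51% in E10.5 EryP, 2.52% in E10.5 Mac and 2.64% in E10.5 HPC. The highest median was 1.76 times the lowest. The 95% order-statistic intervals of the medians, which cover the spread between cells only, were 1.35% to 1.62% in E10.5 Endo and 1.47% to 1.61% in E8.5 Endo. The intervals of the 4 populations next in order, from E8.5 HPC to E10.5 Mk, began at 1.87% or higher and overlapped with each other, and that of E10.5 HPC was 2.58% to 2.74%. The E10.5 Mac interval, 1.78% to 2.86%, and that of the 3 E10.5 EryP cells, 1.53% to 2.59%, were wide, and these values cannot be placed among their neighbours.

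**Figure D2:**
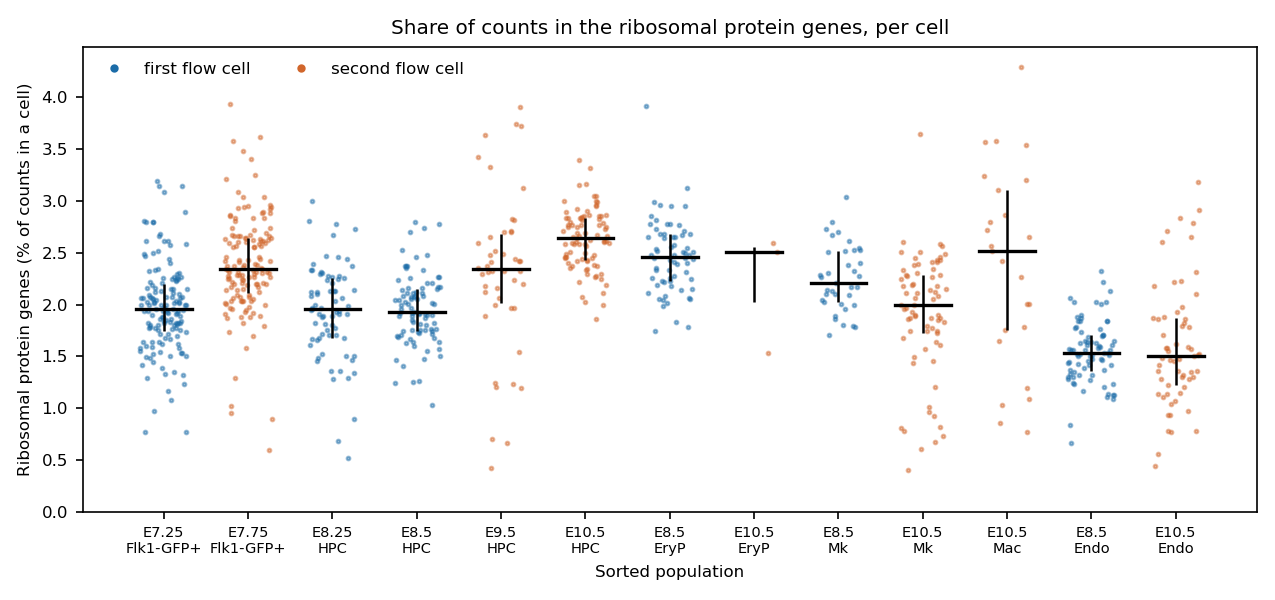
Percentage of counts held by the 89 ribosomal protein genes in each cell (points), with the population median (horizontal line) and quartiles (vertical line), for the 13 sorted populations, and with the flow cell as colour. Both Endo populations, at medians of 1.54% and 1.51%, lie under all others, and the E10.5 HPC median is 2.64%.

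Stage and flow cell moved together in this measure. Within the first flow cell the medians ran from 1.54% (E8.5 Endo) to 2.46% (E8.5 EryP) and within the second from 1.51% (E10.5 Endo) to 2.64% (E10.5 HPC), so endothelium was lowest and a blood population highest within both. The HPC were at 1.96% and 1.93% at E8.25 and E8.5 and at 2.34% and 2.64% at E9.5 and E10.5, which is also a change of flow cell, and the 2 cannot be told apart. Between the captures of a single stage, the medians were 1.83% and 2.07% at E7.25, with mitochondrial transcripts at 4.31% and 2.94%, and 2.20% and 2.43% at E7.75. The higher E7.25 capture thus lay under both E7.75 captures.

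Globin and mitochondrial transcripts take part of the total in red cells. Globin genes held a median of 8.94% of counts in E8.5 EryP and 35.5% in E10.5 EryP, and without globin and mitochondrial genes the ribosomal protein share was 2.80% and 3.99%. Without them the lowest was E8.5 Endo at 1.598%. The highest was then E10.5 EryP (3 cells), and E10.5 HPC, at 2.73%, lay below both EryP populations. Within populations the Spearman correlation of share and depth ran from 0.076 (E7.75 Flk1-GFP+) to 0.593 (E9.5 HPC), a description over at least 25 cells each, without E10.5 EryP. After each cell was thinned to 500000 counts, the medians ran from 1.51% to 2.65%.

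The 46 large subunit genes together held more counts than the 31 of the small subunit, with a median ratio of 1.15 to 1.45. The ratio is not scaled to the number of genes. The ratio was highest in E8.5 EryP (1.45, quartiles 1.41 to 1.52) and lowest in E10.5 Endo (1.15, quartiles 0.994 to 1.27) and E10.5 Mac (1.19, quartiles 1.01 to 1.35). Rpl4, a large subunit protein and the gene with the highest level, was at 3946 CPM in E8.5 EryP, 1603 in E10.5 Endo and 1550 in E10.5 Mac. These are means over cells, with medians over cells of 3847, 1473 and 1499.

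Among comparisons at a single stage, ribosomal protein genes were higher in E8.5 EryP and E8.5 Mk than in E8.5 HPC and lower in E8.5 Endo. Values are log2 ratios of mean CPM + 1 over the 86 genes with a mean of at least 10 CPM, which leaves out Rpl23a, Rpl38 and Rpl39l, and a gene past 2-fold is counted as called. These comparisons share the E8.5 HPC cells. In E8.5 EryP over E8.5 HPC the median was 0.43 (all 9104 genes tested, -0.01), 80 of the 86 genes were above 0, 1 was past 2-fold higher (background 6.77%) and 0 past 2-fold lower (background 20.2%). The gene past 2-fold was Rplp0, the stalk base, at 2578 against 1240 CPM (log2 ratio 1.06), followed by Rps27rt (0.82). The lowest were Rpl15 (-0.33), at 177 against 223, and Rps19bp1 (-0.25). The median of Rplp0 over cells was 2499.8 against 1231 CPM.

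In E8.5 Mk over E8.5 HPC the median was 0.28 (all genes, 0.00), 81 of 86 genes were above 0, and 0 were past 2-fold higher (background 4.75%) or lower (background 12.6%). The ends were Rps27 (0.76) and Rps6 (0.69) above and Rps13 (-0.86) and Rpl9 (-0.44) below. In these 4, 77.6% (Rps13) to 98.4% (Rps27) of windows occur in other genes. By medians over cells the low ends were not lower, at 6.97 CPM in Mk and 6.52 in HPC for Rps13 and at 28.4 and 28.0 for Rpl9. All 4 red cell markers were found in at least 78.4% of E8.5 Mk cells, with a summed mean of 23395 CPM against 3292 in E8.5 HPC, while the 4 Mk markers summed to 386. Their part in the result was not tested. In E8.5 Endo over E8.5 HPC the median was -0.34 (all genes, -0.09), 5 of 86 genes were above 0, 0 were past 2-fold higher (background 14.4%) and 1 was past 2-fold lower (background 11.4%). That gene was Rps19bp1 (-1.21), at 10.525 against 25.7 CPM, with Rpl36a next (-0.90), and the highest was Rpl35a (0.36), whose medians over cells had the opposite order, at 19.1 CPM in Endo and 29.1 in HPC.

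At E10.5, where the 3 comparisons share the HPC cells, the median was -0.21 in Mk over HPC (all genes, -0.06), with 22 of 86 above 0 and 0 past 2-fold in either direction (background 11.8% higher and 12.3% lower). Rps2 (0.85) and Rpl36al (0.52) were at its top and Rpl35a (-0.58) and Rpl22l1 (-0.57) at its bottom. In E10.5 Endo over E10.5 HPC the median was -0.29 (all genes, -0.02), or -0.76 with medians over cells (all genes, -1.84) and -0.61 scaled to the cell total (all genes, -0.31), with 20 of 86 above 0, 1 past 2-fold higher (background 23.6%) and 8 past 2-fold lower (background 21.4%). Its lowest were Rps27a (-1.78), which encodes a ubiquitin fusion, at 14.8 against 53.4 CPM, and Rpl7l1 (-1.52), at 123.2 against 354. Its highest were Rps23 (1.198), a decoding centre protein, and Rpl13 (0.89). A single cell held 80.2% of the Rps23 sum in E10.5 Endo, and without it the mean was 12.7 CPM, under the 26.9 of E10.5 HPC.

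In E10.5 Mac over E10.5 HPC the median was 0.23 (all genes, -0.26), with 60 of 86 above 0, 14 past 2-fold higher (background 17.8%) and 1 lower (background 26.7%). The 14 of 86 are a share near the background for higher genes. Rpl23 (1.55, 442 against 150 CPM) and Rpl10a (1.53, 95.8 against 32.5) were highest, and Rpl15 (-1.21, 54.5 against 127.85) and Rpl4 (-0.96, 1550 against 3008) lowest. A single Mac cell held 42.7% of the Rpl23 sum and the mean without it was 264.2 CPM. Its median over cells was 210.5 against 143.3, while that of Rpl4 was 1499 against 3023. Scaled to the cell total, the Mac median was -0.017, and with medians over cells in place of means it was -0.11, so the direction of this comparison turns with either choice.

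Between stages, the comparisons also cross flow cells, except for the HPC steps. E8.5 HPC over E8.25 HPC had a median of -0.01 (all genes, 0.03), with 41 of 86 genes above 0, 1 past 2-fold higher (background 2.86%) and 0 lower (background 3.65%). The gene past 2-fold was Rps19bp1 (1.08, 25.7 against 11.6 CPM, or 19.3 against 10.2 without the top cell of each), followed by Rps2 (0.52), and Rpl11 (-0.41) and Rpl19 (-0.29) were lowest. E10.5 HPC over E9.5 HPC had a median of 0.03 (all genes, 0.01), with 0 past 2-fold higher (background 6.11%) and 3 lower (background 6.85%). The lowest were Rps15 (-1.33) and Rps2 (-1.30), a small subunit protein, at 42.6 against 106.45 CPM, and the highest were Rpl35 (0.52) and Rps27 (0.43). Rps15 rests on 1 E9.5 cell with 23456 CPM, 63.8% of the sum. The mean was 800 CPM with that cell and 296 without it, against 318 at E10.5. For Rps2 the medians over cells were 29.6 and 96.4.

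Across flow cells, E7.75 over E7.25 Flk1-GFP+ had a median of 0.23 (all genes, 0.05), with 73 of 86 genes above 0, 0 past 2-fold higher (background 4.59%) and 1 lower (background 4.14%). Rpl39 (-1.18) and Rpl22l1 (-0.95) were lowest, and Rpl10 (0.98) and Rpl27 (0.75) highest, where the Rpl27 mean was 43.5 CPM at E7.75 and 28.8 without its top cell. Leaving out the E7.25 capture of lane 6 or lane 7 gave medians of 0.12 and 0.36, and leaving out the E7.75 capture of lane 8 gave 0.15. E10.5 over E8.5 HPC had a median of 0.27 (all genes, -0.10), with 0 past 2-fold higher (background 6.74%) and 3 lower (background 12.2%), Rps2 (-1.49) and Rps19bp1 (-1.19) lowest and Rpl28 (0.84) and Rps4l (0.77) highest.

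E10.5 over E8.5 Mk had a median of -0.23 (all genes, -0.05), 1 past 2-fold higher (background 14%) and 4 lower (background 12.2%). Rpl22l1 (-1.51) and Rpl39 (-1.43) were at the bottom, and Rps13 (1.34) and Rps4l (0.91) at the top. For Rps13 the means were 24.9 CPM at E10.5 and 9.24 at E8.5, and the medians over cells were 10.4 and 6.97. E10.5 over E8.5 Endo had a median of 0.22 (all genes, -0.05), with 3 past 2-fold higher (background 15%) and 4 lower (background 16.9%). Rps23 (1.88) was at the top, and Rpl35a (-1.65) and Rpl15 (-1.15) at the bottom. From medians over cells in place of means, the value was -0.034, and a single cell held 80.2% of the Rps23 sum. E10.5 over E8.5 EryP, with 3 cells at E10.5, had a median of -0.05 (all genes, -1.05), with 2 past 2-fold higher (background 12.2%) and 16 lower (background 50.7%). Rpl24 (1.89, with a mean of 42.7 CPM at E10.5 and 21.0 without its top cell) and Rpsa (1.06), at 1181 against 567 CPM, were highest and Rpl15 (-3.27) and Rps13 (-2.13) lowest.

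The make-up of the sum was compared next. Each gene's share of the counts of all 89 genes was set against its own median over the 13 populations. Of 86 genes, 2 were 1.5-fold or more higher and 31 lower in the 3 E10.5 EryP cells, 6 higher and 9 lower in E10.5 Endo, and 7 higher and 7 lower in E10.5 Mac. In the other 10 populations, at most 4 were higher and 5 lower. From medians of per-cell shares, 2 were higher and 22 lower in E10.5 Endo, and 7 higher and 1 lower in E8.5 HPC. No background over all genes stands beside these counts, so they are not set against other genes. Among the 5 genes with the narrowest log2 range over populations were Rpl36 (0.31), Rps3a1 (0.36), Rpl34 (0.44) and Rps25 (0.45). The 5 widest were Rpl15 (4.85), Rps13 (3.46), Rps12 (3.33), Rpl10 (3.23) and Rpl27 (2.78), each lowest in E10.5 EryP, and without those 3 cells the ranges were 2.54, 1.86, 1.43, 1.34 and 2.20.

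**Figure D3:**
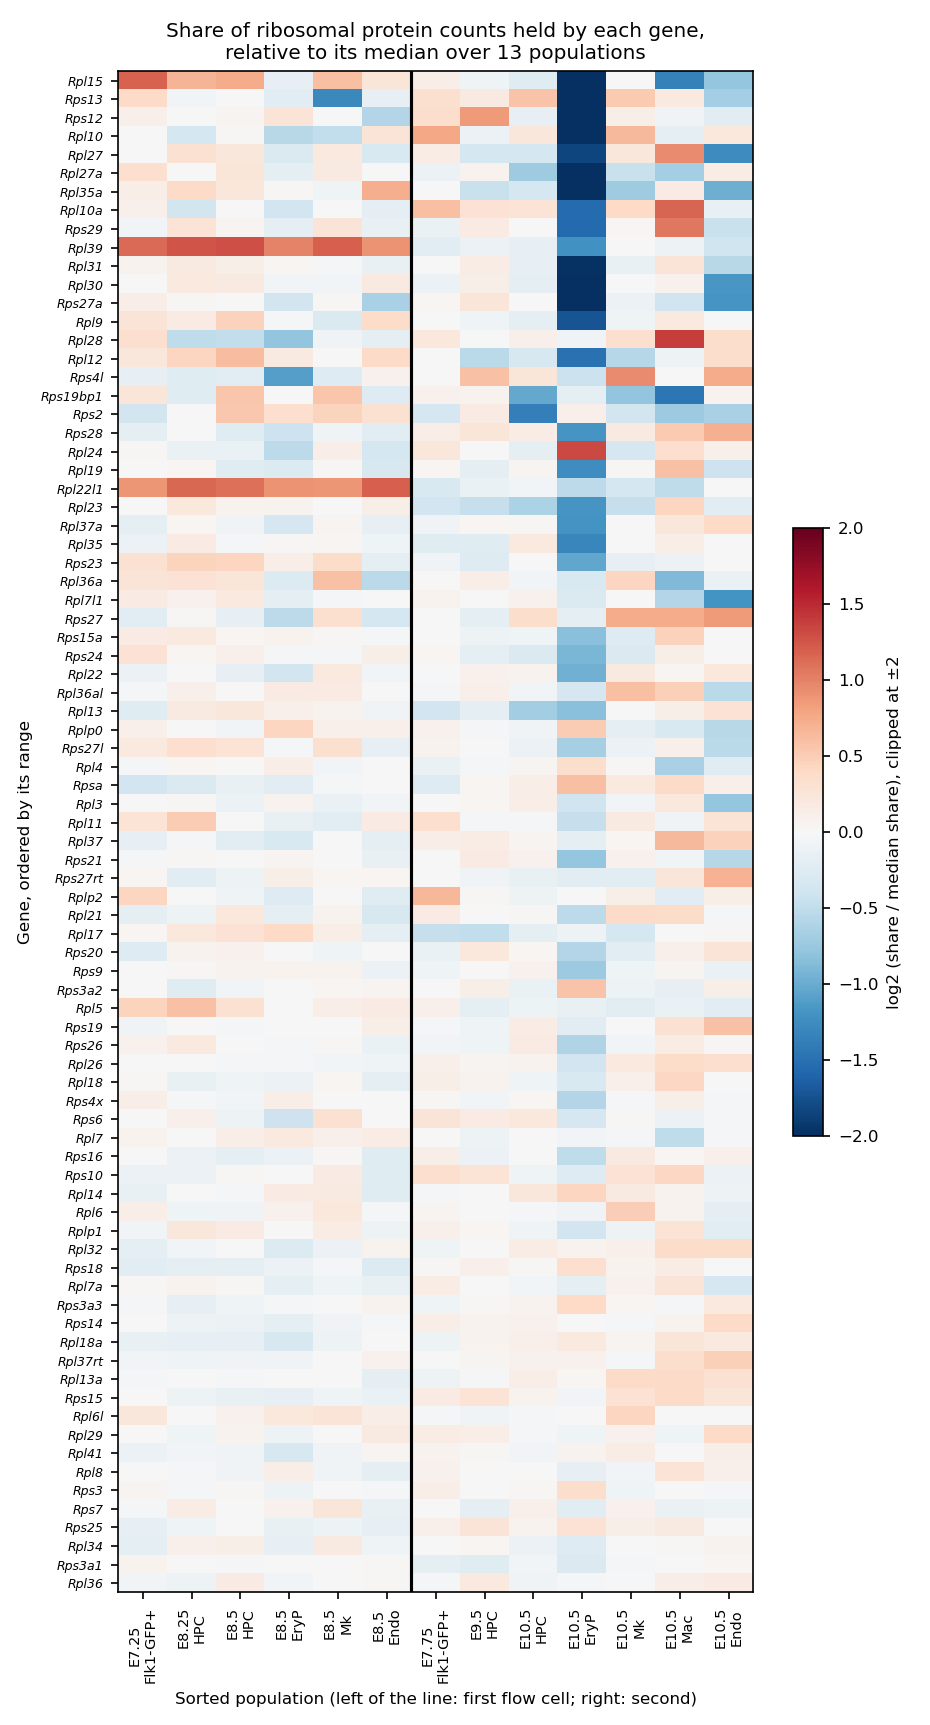
Share of ribosomal protein counts held by each of 82 genes, as log2 relative to its own median over 13 populations (colour, clipped at ±2), with populations of the first flow cell left of the line and of the second right of it. Rpl39 and Rpl22l1 are red in the first flow cell and pale or blue in the second, E10.5 EryP (3 cells) has 31 genes 1.5-fold or more lower, and Rpl36 at the bottom has a range of 0.31.

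Rpl15, a large subunit protein, was at 296 CPM in E7.25 Flk1-GFP+ cells and 54.5 in E10.5 Mac, 59.1 in E10.5 Endo and 17.5 in E10.5 EryP, while the other 9 populations lay between 122.8 and 252. Its medians over cells in those 3 populations were 25.3, 14.8 and 20.4 CPM. In E10.5 Mac the genes furthest above their own median were Rpl28 (1.38 on the log2 scale), Rpl10a (1.16) and Rps29 (1.06), and the furthest below were Rps19bp1 (-1.44) and Rpl15 (-1.35). From medians of per-cell shares, 2 genes were 1.5-fold above and 13 below in Mac. By this measure Rpl28 (0.33) and Rps29 (0.34) were under 1.5-fold, while Rpl10a was at 0.87 and Rpl15 at -2.21. Rps19bp1, with a count in 48% of Mac cells, had no such value.

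A few genes divided by flow cell. Of 86 genes, 2 (Rpl39 and Rpl22l1) had a higher mean in every population of the first flow cell than in every one of the second (background 1.85% of 9104 genes) and 2, among them Rps4l, the opposite (background 0.231%). The first count, 2 of 86, is near its background. Rpl39, which encodes a small protein of the peptide exit tunnel, ran from 146.2 over a middle value of 228.5 to 279.6 CPM in the 6 populations of the first flow cell, and from 76.1 over 100.9 to 111.4 CPM in the 7 of the second. Rpl22l1, a paralogue of Rpl22, ran from 47.7 over 56.6 to 70.7 CPM in the first and from 19.8 over 24.2 to 31.4 in the second. The groups do not overlap for either gene, also in medians over cells (Rpl39, 133.3 CPM at the lowest in the first and 103.5 at the highest in the second). By medians over cells, 2 genes were higher in the first (Rpl39 and Rpl22l1, background 1.44%) and 1 in the second (background 0.0769%).

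Rps4l, a paralogue of Rps4x, ran from 60.3 over 71.9 to 89.8 CPM in the first flow cell and from 102.03 over 121.98 to 187.6 in the second, but its medians over cells overlapped, at 15.3 in E10.5 Mac. Rps18, a small subunit protein, was at 167 to 340 CPM in the first and 240 to 561 in the second, which overlap. Its share of summed ribosomal protein counts did not overlap, at 1.04% to 1.22% in the first and 1.26% to 1.59% in the second. From medians of per-cell shares it did overlap, with E10.5 Endo at -0.018 and E8.5 Mk at 0 on the log2 scale relative to its median population. By summed share, 2 of 86 genes were higher in the first and 1 in the second. No background over all genes stands beside these counts. The 2 flow cells differ in stage as well. Mean Rpl39 was 215 CPM in E7.25 and 94.5 in E7.75 Flk1-GFP+ cells, and 223 in E8.25 HPC. Each capture of E7.25 had a higher mean of Rpl39 (214 and 216) than each of E7.75 (72.7 and 107.7). Flow cell and stage cannot be told apart in these data.

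**Figure D4:**
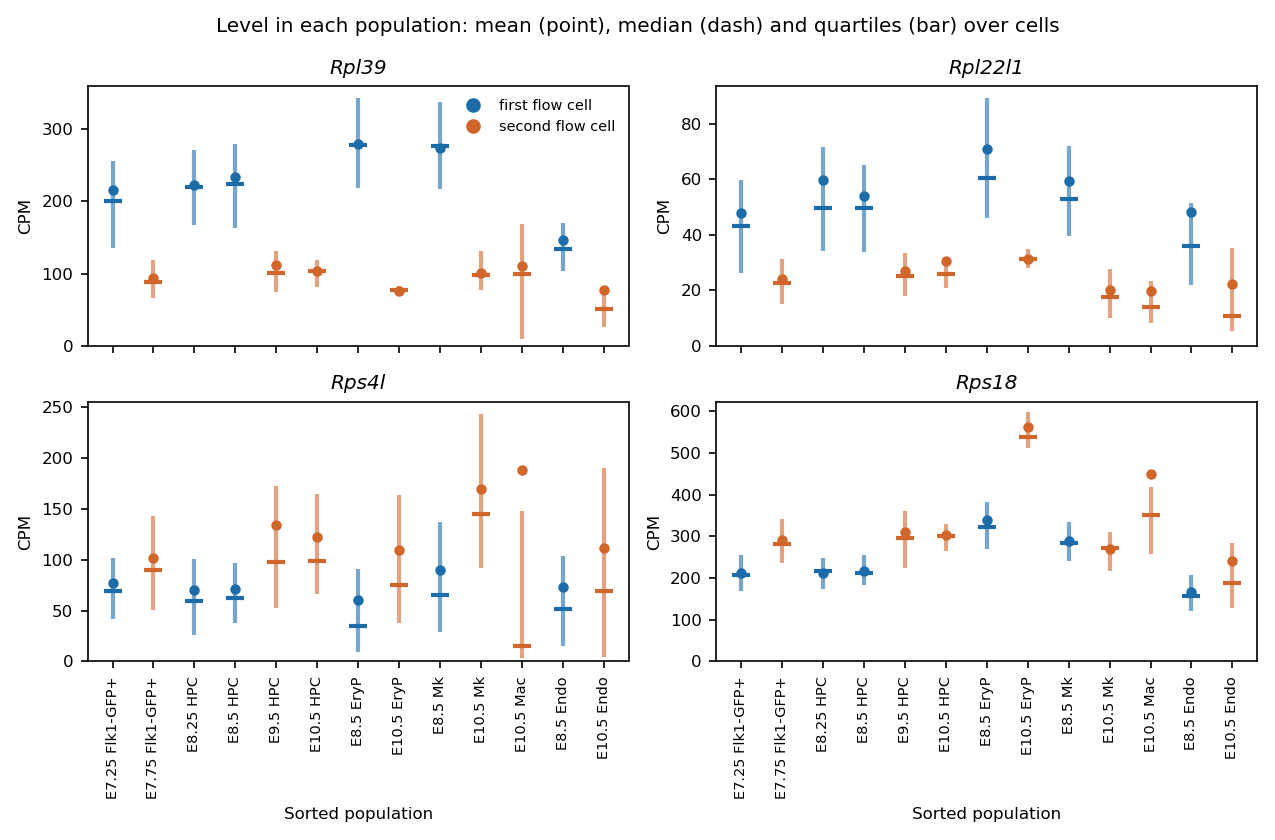
Level of Rpl39, Rpl22l1, Rps4l and Rps18 in the 13 populations (CPM), as mean over cells (point), median (dash) and quartiles (bar), with the flow cell as colour. The 6 populations of the first flow cell have Rpl39 means of 146.2 to 279.6 CPM and the 7 of the second have 76.1 to 111.4. The means of Rps18 overlap between the flow cells. Its share of summed ribosomal protein counts does not overlap, while its medians of per-cell shares do.

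Paralogue use was set out as the share of the second gene in each pair. Rpl22l1 held 14.1% to 36.7% of the summed counts of Rpl22 and Rpl22l1, from 27.9% to 36.7% in the first flow cell and from 14.1% to 24.5% in the second. In E10.5 EryP, the highest of the second, the share was 24.5% (exact binomial 95% interval 21.4% to 27.8%) from 176 counts in 3 cells. RPL22 is an RNA-binding protein of the large subunit that also represses Rpl22l1 by known biology, and across these populations Rpl22 itself was at 89.1 to 227 CPM. Rpl22 is part of the denominator of the share. The highest Rpl22 mean, in E10.5 Mac, stood beside a median over cells of 109.75 CPM. Intervals and floors here cover counting error only, as reads of a PCR library are not independent molecules.

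Summed over cells, Rpl7l1 held 27.2% to 34.2% of the pair with Rpl7 in all populations but E10.5 Endo. There it held 17.9% (interval 17.6% to 18.2%). From medians of per-cell shares of ribosomal protein counts, Rpl7l1 was low in E10.5 Mac as well. On the log2 scale relative to its median population it was at -1.96 in E10.5 Mac, -2.47 in E10.5 Endo and -0.23 or higher elsewhere. Rpl7 was at -0.60 in E10.5 Mac and -0.14 in E10.5 Endo. The quartiles over E10.5 Endo cells were 0.530% and 30.4%, and 83.6% of them had a count of Rpl7l1. RPL7L1 takes part in ribosome assembly, and its coding sequence is 61.0% identical to that of Rpl7 over the 282 bases that could be aligned. Summed over cells, Rps4l held 8.82% of the pair with Rps4x in E8.5 EryP and 30.9% in E10.5 Mk, with 15.6% to 28.0% elsewhere. From medians of per-cell shares of ribosomal protein counts, Rps4l was lowest in E10.5 Mac. On the same log2 scale it was at -2.26 there, -1.33 in E8.5 EryP and -0.33 or higher elsewhere. Rps4x was at 0.18 in E10.5 Mac and 0.097 in E8.5 EryP. Rps4l is annotated as a transcribed processed pseudogene, 79.9% identical to Rps4x, and 1.66% of its windows occur elsewhere.

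Rpl36al held 82.7% to 94.2% of the pair with Rpl36a, with the highest share in E10.5 Mac. Rpl36a shares its exact sequence with pseudogenes that held 92.6% of their common level, so the assignment of reads also bears on this pair. Rps27l, induced by p53 by known biology, held 82.9% (E10.5 Endo) to 94.7% (E8.5 EryP) of the pair with Rps27. The Rps27 counts are uncertain, given its identity with Rps27rt, and this share leaves Rps27rt out. Of all ribosomal protein counts in E10.5 Endo, Rps27l held 0.609%, Rps27 0.126% and Rps27rt 1.58%. In E8.5 EryP these were 0.868%, 0.0483% and 1.06%, so Rps27l held less than Rps27rt in both. The level of Rps27l was 107.7 CPM in E10.5 Endo, 125.8 in E8.5 Endo and 406 in E10.5 Mac, where the median over cells was 160.

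Rpl39l, whose protein is known from male germ cells, was nearly absent. Its share of the pair with Rpl39 was highest in E10.5 HPC, at 3.06% (interval 2.81% to 3.32%), with a count in 18.4% of those cells, and at most 0.614% elsewhere. In E8.5 Mk, E10.5 Mk, E10.5 Endo and E10.5 EryP it had 0 counts, which allows 0.0107%, 0.0267%, 0.0470% and 0.898%. The germ-cell and muscle forms Rpl10l and Rpl3l are not in the filtered table. In the unfiltered table they had a count in 5 and 7 of the 926 cells.

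**Figure D5:**
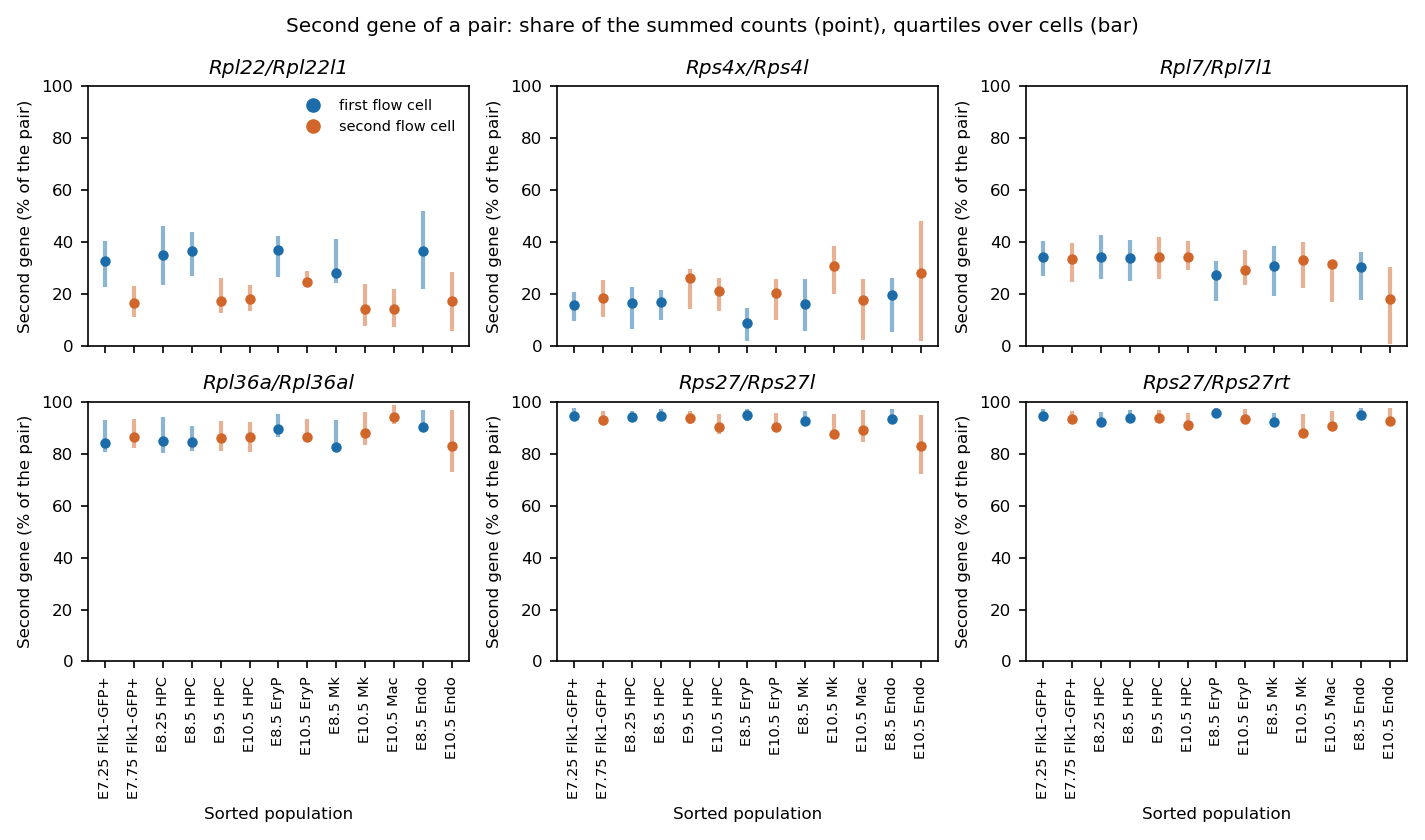
Share of the second gene in the summed counts of 6 pairs in each population (points, percent) with quartiles of the share over cells (bars) and the flow cell as colour. The share of Rpl22l1 is 27.9% to 36.7% in the first flow cell and 14.1% to 24.5% in the second, Rpl7l1 is lowest in E10.5 Endo (17.9%), and Rps27l and Rps27rt hold over 82% of their pairs with Rps27.

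The stalk proteins RPLP0, RPLP1 and RPLP2, which recruit translation factors, held 6.09% of the counts of the 89 genes in E10.5 Endo, 7.32% in E10.5 Mac and 10.6% and 10.8% in E8.5 and E10.5 EryP. Rplp0 was at 778 CPM in E10.5 Endo, 1240 in E8.5 HPC, 2578 in E8.5 EryP and 3183 in the 3 E10.5 EryP cells. Rplp2 had its highest means in E10.5 EryP (164) and E7.75 Flk1-GFP+ (157.97) and its lowest in E8.5 Endo (63.0). Rpl5 and Rpl11, whose proteins bind MDM2 with the 5S rRNA when ribosome assembly fails, held 0.389% to 0.675% of the counts. Rpl5 was at 49.9 CPM in E10.5 Endo and 102.3 in E8.5 EryP, and Rpl11 between 21.4 and 30.7 in all populations.

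Of 10 genes mutated in Diamond-Blackfan anaemia, all 10 were in the table, and together they held 3.07% of ribosomal protein counts in E10.5 EryP and 3.96% to 4.73% in the other populations. Rps19, the gene most often affected, ran from 147.7 CPM in E8.5 Endo to 263.5 in E10.5 Mac and was at 245 in E8.5 EryP and 158.3 in E8.5 HPC. Rps26 ran from 77.6 to 150.9, Rps24 from 131.6 to 234 and Rpl35a from 13.2 to 48.7. Rpl35a was low in the 3 E10.5 EryP cells (13.2) and in E10.5 Endo (14.0). Of the ribosomal proteins that the symbol rule leaves out, Rack1, a signalling scaffold of the small subunit listed by its older symbol Gnb2l1, had 1785 CPM on average, from 1026 in E10.5 Endo to 2289 in E8.5 EryP. Fau had 29.8.

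Other genes of the translation pathway were set beside these by lists. In E8.5 EryP over E8.5 HPC the medians were 0.57 for 20 other TOP mRNAs, 0.37 for 28 initiation factors, 0.49 for 45 ribosome biogenesis genes and 0.40 for 76 mitochondrial ribosomal protein genes, against 0.43 for the 86 ribosomal protein genes. Of these, 0 TOP mRNAs, 0 initiation factors, 1 biogenesis gene and 4 mitochondrial genes were past 2-fold higher (background 6.77%) and 0 of each lower (background 20.2%). In E8.5 Endo over HPC the biogenesis median was -0.94, with 20 of 45 past 2-fold lower (background 11.4%), and in E10.5 Endo over HPC it was -1.61, with 35 of 45 lower (background 21.4%). The ribosomal protein medians in these 2 were -0.34 and -0.29. In E10.5 over E8.5 HPC the ribosomal protein median was 0.27, that of the TOP mRNAs 0.22 and those of initiation factors and biogenesis genes -0.13 and -0.04. In E10.5 Mac over HPC the mitochondrial median was -0.68, with 23 of 76 lower (background 26.7%).

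Genes with a pattern most like the summed ribosomal protein level included copies of the same genes. Over 13 populations, and among 2226 other genes with a mean of at least 100 CPM, the highest Pearson correlations of log2 levels were those of Rpl14-ps1 (0.94), Rpl31-ps8 (0.94), Uqcrq (0.94), Gm13680 (0.92), Gm10736 (0.92), Gm11808 (0.92), Rps26-ps1 (0.92), Gm10073 (0.91), Gm11361 (0.91) and Gm15772 (0.91). Uqcrq encodes a subunit of respiratory complex III. The populations share libraries and scaling, and all 10 genes are highest in the 3 E10.5 EryP cells. Without those cells the 10 correlations were 0.84 to 0.94. Of the 10, Gm10736 was too short for a window and 7 share exact 100-base windows with a ribosomal protein gene, among them Rpl31-ps8 with Rpl31 (100%), Gm15772 with Rpl26 (41%), Gm11361 with Rps18 (37.2%) and Gm10073 with Rplp1 (30.2%). Among the 89 genes, 77 correlated above 0 with the sum of the others, with a median of 0.67. The lowest were Rpl10 (-0.56) and Rpl15 (-0.52). No such count over all genes is given beside the 77.

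Start sites of these genes carry letters of known classes. RefSeq start sites (GRCm38.p6) were available for 57 of the 77 core genes, and the 250 bases before to 50 after each were searched. A C followed by at least 4 more C or T, beginning within 15 bases of a start, was found in 40 of the 57 (70.2%) against 44.1% of 27025 genes, the pattern of the TOP class. On either strand, CCGGAAG, the core of ETS factor sites, was found in 24 (42.1%) against 9.93%, GGGCGG, the core of SP1 sites, in 35 (61.4%) against 38.2%, and AAGATGGC, the core of YY1 sites, in 5 (8.77%) against 3.19%. No overlap between them was removed. The 30 bases around a start are given for the highest gene, for a gene listed at a lower level than its pseudogenes, for the gene that varied most and for the gene that divided by flow cell, with capitals at a C followed by at least 4 more C or T:
Rpl4: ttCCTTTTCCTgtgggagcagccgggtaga
Rps6: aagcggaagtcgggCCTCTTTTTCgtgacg
Rpl15: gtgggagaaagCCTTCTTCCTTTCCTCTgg
Rpl39: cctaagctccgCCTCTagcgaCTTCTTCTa
These lie at chr9:64173372-64173401 (plus strand), chr4:86857353-86857382 (minus), chr14:18270972-18271001 (minus) and chrX:37085208-37085237 (minus). All 4 hold such a run, and a match is a description of letters. The RefSeq start is not marked in these letters. A run that ends before the start, as in Rpl4, lies outside the annotated mRNA.

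Detection was near complete. Of the 89 genes, 77 had at least 1 count in 90% or more of the cells of every population, 42 had at least 10 counts, and 59 had 1 count after thinning to 500000 counts. The 12 genes that did not were Rpl12, Rpl17, Rpl23a, Rpl36a, Rps12, Rps16, Rps23 and Rps27 of the core genes, with lowest values of 80.0% to 88.0%, and Rpl7l1 (83.6%), Rps4l (66.7%), Rps19bp1 (37.7%) and Rpl39l (0).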

How the data were processed

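Single-cell RNA-seq of yolk sac cells was used as deposited. The read counts per gene were made by the authors with Subread and featureCounts (GRCm38, per the labels). The deposited signal table gives CPM after scran size factors, and in each cell its values equal the filtered counts times a single factor, with sums of 699615 to 4176737. The settings for strand and for reads with several matches are not given in the sources used here. No column was left unmapped.

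Shares were taken from counts. Levels are means of CPM over cells, and log2 ratios use mean CPM + 1 over 9104 genes with a mean of at least 10 CPM over the 13 populations. A gene past 2-fold was counted as called, with no p-value, since most populations are 1 capture. Exact binomial intervals and the floor of 3 counts cover counting error only. Lengths, sequences and shared windows came from GENCODE M21, start sites from RefSeq (GRCm38.p6). The 10 genes at the ends of levels and ranges, the 2 highest and 2 lowest of each comparison, the pairs, the lists and the 10 most similar genes were named by rule. The members and lists were chosen with earlier results of these data known. The log2 ratios and the intervals of the medians were tested on simulated data. The binomial intervals, populations of few cells and changes in genes of low level were not part of that test. Alternatives covered the scaling, the pseudocount, the filters, medians over cells, the table used, thinning and leaving out a capture. Python 3.11.15, numpy, pandas, scipy and matplotlib were used. A few genes that the naming rule selects are not reported here.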

Additional observations from a re-analysis of the deposited data

Results flagged for a closer look

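Signal was present in 2 kinds of data outside the comparisons. Ribosomal protein pseudogenes named "-ps", which the symbol rule leaves out, held a median of 1.15% of counts over the 13 populations, from 0.795% in E10.5 Endo to 1.36% in E10.5 EryP. The captured cells that did not pass the filter held a median ribosomal protein share of 1.06% in the unfiltered table, against 2.11% in the cells that passed. By population, this median was lowest in the 22 E10.5 EryP cells (0.140%) and the 18 E8.5 EryP cells (0.572%) and highest in the 5 E10.5 HPC (2.46%), while the 19 E10.5 Endo cells were at 1.68%, above the 1.51% of those that passed. The sources of both signals were not tested.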

How the results depend on the processing

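No paired analysis was possible because the numbers in the labels only name cells. The alternatives were fixed with the design, apart from leaving out the cells with the highest CPM sums, adding pseudogene counts and using medians of per-cell shares, which were chosen after seeing the data. The ratio of the highest to the lowest median share of counts stayed between 1.70 and 2.50 over its alternatives. At 2.50, without globin and mitochondrial genes, the highest population was E10.5 EryP in place of E10.5 HPC. With means of per-cell shares in place of summed counts, the share of Rpl39l in E10.5 HPC was 2.49% against 3.06% and that of Rps27l in E10.5 Mac 79.6% against 89.1%.

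The median log2 ratio of the ribosomal protein genes moved with the scaling and with medians over cells in place of means. Scaled to each cell's total counts, it was 0.30 in E7.75 over E7.25 Flk1-GFP+, 0.17 in E10.5 over E9.5 HPC, 0.43 in E10.5 over E8.5 HPC, 0.11 in E10.5 over E8.5 Endo, -0.44 in E10.5 over E8.5 EryP, 0.19 in E8.5 EryP, 0.21 in E8.5 Mk, -0.44 in E10.5 Mk, -0.017 in E10.5 Mac and -0.61 in E10.5 Endo over the HPC of the stage. This scaling moved the median of all genes to -0.23 in E8.5 EryP over HPC and to -0.31 in E10.5 Endo over HPC. With globin and mitochondrial genes also left out of the total, it was 0.42 in E10.5 over E8.5 HPC, 0.13 in E10.5 over E8.5 EryP, 0.34 in E8.5 EryP, -0.42 in E8.5 Endo, -0.35 in E10.5 Mk, 0.042 in E10.5 Mac and -0.52 in E10.5 Endo over HPC. With medians over cells, it was 0.11 in E10.5 over E9.5 HPC, -0.034 in E10.5 over E8.5 Endo, -0.29 in E10.5 Mk, -0.11 in E10.5 Mac and -0.76 in E10.5 Endo over HPC. Among genes with at least 100 CPM in 50% of cells, it was 0.036 in E10.5 over E8.5 EryP and 0.55 in E8.5 EryP over HPC. With a capture left out, E7.75 over E7.25 gave 0.12 (without lane 6 of E7.25), 0.36 (without its lane 7) and 0.15 (without lane 8 of E7.75). Members past 2-fold, 64 over the 13 comparisons, were 38 with a pseudocount of 10, 24 among genes with at least 100 CPM, 40 with pseudogene counts added to their parents and 200.0 at 1.5-fold. At 10 counts in place of 1, 42 of 89 genes were detected in 90% of cells of every population. The cause of these changes was not tested, apart from thresholds that admit more or fewer genes by construction. Depth limits the low genes, since Rpl39l and Rps19bp1 were often at 0 counts, and the 3 E10.5 EryP cells, the 25 E10.5 Mac cells and single cells with high values limit the means.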
